A study of Mus musculus with 6 samples.

Results

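The interleukin genes Il4, Il5, Il9, Il13 and Il6 were followed in group 2 innate lymphoid cells (ILC2s) of the mouse lung, in ICOS KO against WT libraries. They were taken by name from the table of estimated counts per gene, and all 5 were present among its 18122 genes. ILC2s are lymphocytes without antigen receptors that answer epithelial alarm signals by releasing type 2 cytokines. Per the labels, the cells were sorted from lung and cultured, and 10 pg of RNA per sample was copied into cDNA with a SMARTer kit for low input. The ICOS KO group held 3 libraries labelled C.129S4-Icostm1Shr/J, in which a targeted allele of Icos is part of the strain name; Icos encodes the inducible co-stimulator receptor. The WT group held 3 libraries labelled BALB/C BYJ. Icos genotype and strain DNA cannot be told apart in this design, no age or treatment is given, and nothing in the labels says that the libraries of a group came from separate mice or cultures. The p-values below therefore measure the spread between these libraries.

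Il4 and Il13 encode sister cytokines that signal through a shared receptor chain and drive alternative macrophage activation, mucus production and IgE switching. Il5 encodes the growth and survival factor of eosinophils, Il9 a growth factor of mast cells that also acts on ILC2s themselves, and Il6 a cytokine of acute inflammation that many cell types release. Il4, Il13 and Il5 lie together in the type 2 cytokine locus, on both sides of the DNA repair gene Rad50. ILC2s are known for large amounts of interleukin-5 and interleukin-13, which makes the balance among these genes a feature of the cell type.

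In the mouse genome GRCm38 (GENCODE M21) the locus spans a short stretch of chromosome 11. Il4 (ENSMUSG00000000869.12; chromosome 11, 53602982 to 53618669, minus strand, 4 exons) lies 12.7 kb from Il13 (ENSMUSG00000020383.1; 53631324 to 53634702, minus strand, 4 exons). Il5 (ENSMUSG00000036117.2; 53720794 to 53725106, plus strand, 4 exons) lies a further 86.1 kb away, beyond the 57.8 kb of Rad50. Il9 (ENSMUSG00000021538.3) is on chromosome 13 from 56479277 to 56482246, minus strand, and Il6 (ENSMUSG00000025746.11) on chromosome 5 from 30013114 to 30019981, plus strand, with 5 exons each. An antisense gene, Gm12214, lies inside Il5 from 53723953 to 53724618. The strand setting of the counting is not given in the sources used here, so reads of the pair may not have been told apart. Gm12214 held 257 to 405 estimated counts per library, at most 0.44% of those of Il5.

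The promoters of the 3 genes of the locus are shown as a description. Il4 and Il13 were the members with non-overlapping libraries, and Il5, in the same locus, was not among them. Of all tested genes 24.4% did not overlap either. For Il13 the gap was 1.03-fold, and its groups overlapped once the length and GC trend described below was taken out. A link between the matches and the levels was not tested. Each is the 250 bases before the RefSeq gene start (GRCm38.p6), 5′ to 3′ on the gene's own strand, and capitals mark GGAAA, the core letters bound by NFAT factors, and GATA, those bound by Gata3, on either strand (TTTCC and TATC are the reverse readings).
Il4 promoter, chr11:53618666-53618915, minus strand: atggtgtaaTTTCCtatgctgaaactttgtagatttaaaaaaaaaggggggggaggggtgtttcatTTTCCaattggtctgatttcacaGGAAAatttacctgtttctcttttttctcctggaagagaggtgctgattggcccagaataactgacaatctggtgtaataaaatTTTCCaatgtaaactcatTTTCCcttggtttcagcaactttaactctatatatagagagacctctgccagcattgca
Il13 promoter, chr11:53634703-53634952, minus strand: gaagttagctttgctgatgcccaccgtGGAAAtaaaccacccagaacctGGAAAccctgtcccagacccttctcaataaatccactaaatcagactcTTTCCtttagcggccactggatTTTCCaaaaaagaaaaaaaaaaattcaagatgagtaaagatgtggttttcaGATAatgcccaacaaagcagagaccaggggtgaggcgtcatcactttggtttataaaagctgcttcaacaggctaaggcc
Il5 promoter, chr11:53720544-53720793, plus strand: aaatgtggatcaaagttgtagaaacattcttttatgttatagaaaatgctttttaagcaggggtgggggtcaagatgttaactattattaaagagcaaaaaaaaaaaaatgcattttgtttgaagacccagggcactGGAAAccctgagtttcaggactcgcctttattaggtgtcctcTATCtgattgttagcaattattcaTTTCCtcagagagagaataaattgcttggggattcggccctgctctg
The Il4 window held 5 GGAAA matches, at 241, 184, 161, 77 and 59 bases before the start, and no GATA. As many GGAAA matches stood in 0.4% of 32851 RefSeq promoter windows of the same length. The Il13 window held 4 of them (as many in 1.6% of windows) and the Il5 window 2 (21.4%), each with 1 GATA, at 80 and at 71 bases before the start. GGAAA occurred at least once in 55.6% of windows and GATA in 53.6%, and such letters mark no proven site. In the windows of Il9 and Il6, which are not shown, GGAAA occurred 3 times each and GATA 2 times and 1 time. A search for the AP-1 letters TGANTCA, present in 6.7% of windows, found 1 match each in Il9, at 140 bases, and Il6, at 249 bases, and none in Il4, Il13 or Il5.

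All 5 transcripts also carry the AU-rich pentamer ATTTA, through which proteins such as tristetraprolin (Zfp36) mark cytokine mRNAs for decay. A window of 30 bases from each 3′ UTR, with the pentamers in capitals, shows how closely they are set.
Il9: tgctATTTAttctATTTAttgaATTTAcaa
Il4: atttttaatATTTAtatATTTAtaattcat
Il6: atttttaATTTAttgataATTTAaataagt
Il5: tgctgtttccATTTAtATTTAtgtcctgta
Il13: cttATTTAttatggttgtgtgttATTTAaa
The 3′ UTR of Il9 packed 3 pentamers into 86 bases, 34.9 per kb, a density reached by 2 of 12765 protein-coding genes, Il9 among them. Il4 held 2 in 104 bases, 19.2 per kb, a density reached by 17 genes. By number alone neither stands out: 34.6% of genes had at least 3 pentamers and 47.2% at least 2. Their density thus goes with short 3′ UTRs. Il6 held 6 in 427 bases (14.1 per kb), Il5 7 in 1092 bases (6.4 per kb) and Il13 3 in 741 bases (4.0 per kb). The median gene had 1.23 per kb, and 66.8% of genes had at least 1 pentamer.

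The libraries were first set against their labels. Icos itself stood at 139.9, 170.2 and 161.4 CPM (counts divided by the TMM-scaled library size) in ICOS KO replicates 1 to 3, against 434.3, 462.2 and 501.7 CPM in WT replicates 1 to 3. It fell by 1.57 ± 0.10 on the log2 scale (edgeR's adjusted p = 1.27e-05), so reads of the gene remained in ICOS KO cells. Totals were 13738062 to 15543034 estimated counts in ICOS KO libraries and 14976130 to 18736474 in WT libraries, and 3 counts in a library were worth 0.157 to 0.225 CPM. Summed ILC2 marker genes, 12 in all, came to 6120 to 6450 CPM in ICOS KO and 5490 to 5580 CPM in WT libraries. Of the 12, 3 were called higher (Klrg1, Arg1 and Il1rl1) and 1 lower (Rora), so the sum mixes genes of both directions. Over all tested genes 1.29% were called higher and 2.01% lower, the background for each marker list. Klrg1 was at 557 ± 49.4 CPM in ICOS KO and 240 ± 19.4 CPM in WT (SD, n = 3 each). Arg1 was at 627.5 ± 14.4 CPM in ICOS KO and 380 ± 17.8 CPM in WT. Gata3, which was not called, was at 753 ± 53.1 CPM in ICOS KO and 868 ± 51.0 CPM in WT. Markers of mast cells and basophils, cells that also make interleukin-4 and interleukin-13, summed to 62.3 to 72.5 CPM in ICOS KO against 360 to 414 CPM in WT libraries. Of their 10 tested genes 7 were called lower and none higher, and Fcer1a was at 0 in ICOS KO replicates 1 and 3. Kit, on the same list, did not differ, at 20.23 CPM in ICOS KO and 20.25 CPM in WT (edgeR's adjusted p = 0.998). Summed T cell markers were at 369 to 471 CPM in ICOS KO and 247 to 301 CPM in WT libraries, with Trbc1 and Trbc2 called higher, Cd3e called lower (2.30 ± 1.34 CPM in ICOS KO and 8.87 ± 1.42 CPM in WT) and the antigen receptor gene Trac below 1.5 CPM in every library. Markers of macrophages and dendritic cells summed to 72.2 to 111 CPM in ICOS KO and 119 to 174 CPM in WT libraries. The eosinophil granule genes Epx and Prg2 had 138 and 160 estimated counts in WT replicate 1 and 330 and 469 in WT replicate 2, against at most 7 in any other library, and the summed eosinophil and neutrophil markers were at 3.79 to 4.39 CPM in ICOS KO against 4.72 to 50.5 CPM in WT libraries. B cell markers summed to 2640 to 2890 CPM in ICOS KO and 1520 to 2400 CPM in WT libraries, nearly all from the antibody genes Ighm and Igkc. The part of such cells in the results below was not tested, and in bulk RNA fewer cells of a type and less RNA per cell cannot be told apart.

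**Figure D1:**
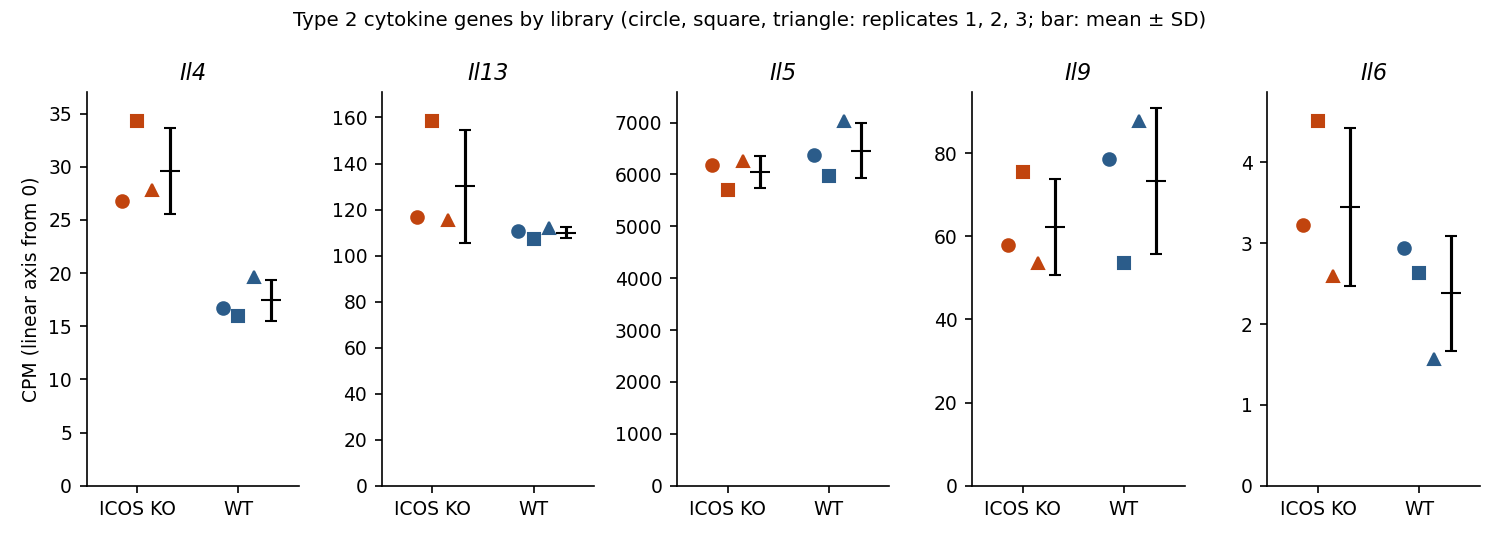
CPM (TMM-scaled, linear axis from 0) of Il4, Il13, Il5, Il9 and Il6 in 3 ICOS KO libraries (left, orange) and 3 WT libraries (right, blue); circles, squares and triangles are replicates 1, 2 and 3 and the bar is the mean ± SD. The ICOS KO points lie above every WT point for Il4 and, narrowly, for Il13, and the groups overlap for Il5, Il9 and Il6.

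Of the 5 genes, Il4 alone passed the test, and it was higher in ICOS KO cells. Across the whole table edgeR called 3.29% of 13691 tested genes at an adjusted p under 0.05, 1.29% higher and 2.01% lower in ICOS KO, so 1 call among 5 genes is a statement about Il4 and not about the set. The libraries of the 2 genotypes did not overlap for Il4 and Il13, with ICOS KO higher for both; 24.4% of tested genes had groups that did not overlap, 11.9% with ICOS KO higher. Il4 stood at 26.7, 34.3 and 27.8 CPM in ICOS KO replicates 1 to 3, against 16.7, 15.9 and 19.6 CPM in WT replicates 1 to 3. Every ICOS KO library lay above every WT library, and the lowest ICOS KO value was 1.36 times the highest WT value. The means were 29.6 ± 4.09 CPM in ICOS KO and 17.4 ± 1.93 CPM in WT (SD, n = 3 each). This is 1.7-fold higher (95% interval 1.34 to 2.16) or 0.77 ± 0.16 on the log2 scale (SE; edgeR's adjusted p = 0.0217). Permuting the CPM over the libraries (exact, two-sided) gave p = 0.1, the smallest that 20 splits of 6 libraries allow. A larger absolute log2 fold change was found in 10.2% of tested genes. Leaving out any library but WT replicate 3 or ICOS KO replicate 1 ended the call (edgeR's adjusted p from 0.0673 to 0.131), while the log2 fold change stayed between 0.65 and 0.85 when any library was left out. It was also lost, at a log2 fold change of 0.33, when each library's trend in length and GC content was taken out (edgeR's adjusted p = 0.215), a setting described further on in which Il9 was the only member called. Mast cell and basophil markers were lower in ICOS KO libraries, and the part of such cells in the level of Il4 was not tested.

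Il13, the neighbour of Il4, did not pass the test, although its ICOS KO libraries were the higher ones. It stood at 116.6, 158.4 and 115.3 CPM in ICOS KO replicates 1 to 3, against 110.7, 107.3 and 112.0 CPM in WT replicates 1 to 3. The groups did not overlap, yet the lowest ICOS KO library was only 1.03 times the highest WT library. The means were 130 ± 24.5 CPM in ICOS KO and 110 ± 2.41 CPM in WT (SD, n = 3 each), with a log2 fold change of 0.24 ± 0.13 (edgeR's adjusted p = 0.313). Its 95% interval, from 0.974-fold to 1.44-fold, takes in both no change and a moderate increase. Most of the difference lay in ICOS KO replicate 2, without which the log2 fold change was 0.08.

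Il5 was the most abundant of the 5 genes in both genotypes and showed no detectable difference. It stood at 6188, 5694 and 6263 CPM in ICOS KO replicates 1 to 3, against 6381, 5970 and 7027 CPM in WT replicates 1 to 3. The groups overlapped, with 6049 ± 309 CPM in ICOS KO and 6460 ± 533 CPM in WT (SD, n = 3 each) and a difference of -0.09 ± 0.08 on the log2 scale (edgeR's adjusted p = 0.504). The 95% interval of the fold, 0.835 to 1.05, is the narrowest of the set. Per kb of transcript, a scale that allows levels of different genes to be compared, Il5 averaged 3935 CPM in ICOS KO and 4203 CPM in WT. That placed it 7th of 13148 protein-coding genes in ICOS KO and 6th in WT. Its reads were 0.543% to 0.616% of all estimated counts in ICOS KO libraries and 0.606% to 0.716% in WT libraries.

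The groups overlapped for Il9. It stood at 57.8, 75.4 and 53.6 CPM in ICOS KO replicates 1 to 3, against 78.5, 53.7 and 87.7 CPM in WT replicates 1 to 3. ICOS KO replicate 2 lay close to WT replicate 1, and WT replicate 2 was level with ICOS KO replicate 3. The means were 62.3 ± 11.6 CPM in ICOS KO and 73.3 ± 17.6 CPM in WT (SD, n = 3 each), which differ by -0.24 ± 0.18 on the log2 scale (edgeR's adjusted p = 0.491; fold interval 0.645 to 1.12). The coefficient of variation was 18.6% in ICOS KO and 24.0% in WT, beside a biological coefficient of variation of 18.5% over all genes.

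Il6 was near the low end of what these libraries resolve. It had 50, 60 and 35 estimated counts in ICOS KO replicates 1 to 3, against 56, 50 and 24 in WT replicates 1 to 3, and the 24 carry a 95% Poisson interval of 15.4 to 35.7 that covers counting error only. On the CPM scale the values were 3.23, 4.51 and 2.60 in ICOS KO and 2.94, 2.63 and 1.57 in WT. The groups overlapped, the log2 fold change was 0.53 ± 0.39 (edgeR's adjusted p = 0.469), and the fold interval of 0.8 to 2.59 takes in no change. Counting error alone gives Il6 a coefficient of variation of 13% to 20%, against 28.3% observed in ICOS KO and 30.0% in WT.

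Among the 5 genes the order of levels per kb was the same in 6 of 6 libraries: Il5, then Il9, Il13, Il4 and Il6. Il5 made up 91.7% to 94.3% of their summed level per kb in ICOS KO libraries and 93.9% to 94.7% in WT libraries, and stood 26.3 to 40.8 times above Il9, the next gene. Il9 and Il13 were the closest neighbours, at 116 ± 21.6 and 108 ± 20.4 CPM per kb in ICOS KO cells, against 137 ± 32.8 and 91.3 ± 2.0 CPM per kb in WT cells (SD, n = 3 each). The ranges of their levels overlapped in ICOS KO cells, although within each library Il9 was the higher one per kb, by 1.05 to 1.11 times in ICOS KO and 1.12 to 1.76 times in WT libraries. The place of Il9 above Il13 comes from dividing by transcript length. In estimated counts Il13 exceeded Il9 in every library, by 0.35 to 1.1 on the log2 scale. The length and GC trend described below was not taken out of these levels per kb, so their order depends on that scale. Il4 averaged 50.2 CPM per kb in ICOS KO and 29.5 CPM per kb in WT, and its share of the summed level was 1.06%, 1.44% and 1.09% in ICOS KO replicates 1 to 3, against 0.641%, 0.658% and 0.683% in WT replicates 1 to 3. Il6 averaged 3.02 CPM per kb in ICOS KO and 2.09 CPM per kb in WT. Apart from Il9 and Il13, neighbours in the order were at least 2.03-fold apart in every library.

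Libraries of a genotype deviated together for several of the genes. ICOS KO replicate 2 was the highest of its group for Il4, Il13, Il9 and Il6 and the lowest for Il5. WT replicate 3 was the highest of its group for Il4, Il13, Il5 and Il9 and the lowest for Il6. These orders changed in part once the length and GC trend was taken out, as described below. WT replicate 3 was then the lowest of its group for Il4 (17.9 CPM) and Il13 (109 CPM) and the highest for none of the genes. For Il4, ICOS KO replicate 1 (26.8 CPM) was then above ICOS KO replicate 2 (25.8 CPM). ICOS KO replicate 2 also had the largest share of mitochondrial counts (0.616%, against 0.329% and 0.492% in ICOS KO replicates 1 and 3) and the most Malat1, a nuclear RNA (1690 CPM, against 811 and 1410 CPM). In WT libraries the mitochondrial share was 0.263% to 0.422% and Malat1 was at 610 to 996 CPM, with WT replicate 3 highest in both. The part of these features in the levels of the 5 genes was not tested.

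**Figure D2:**
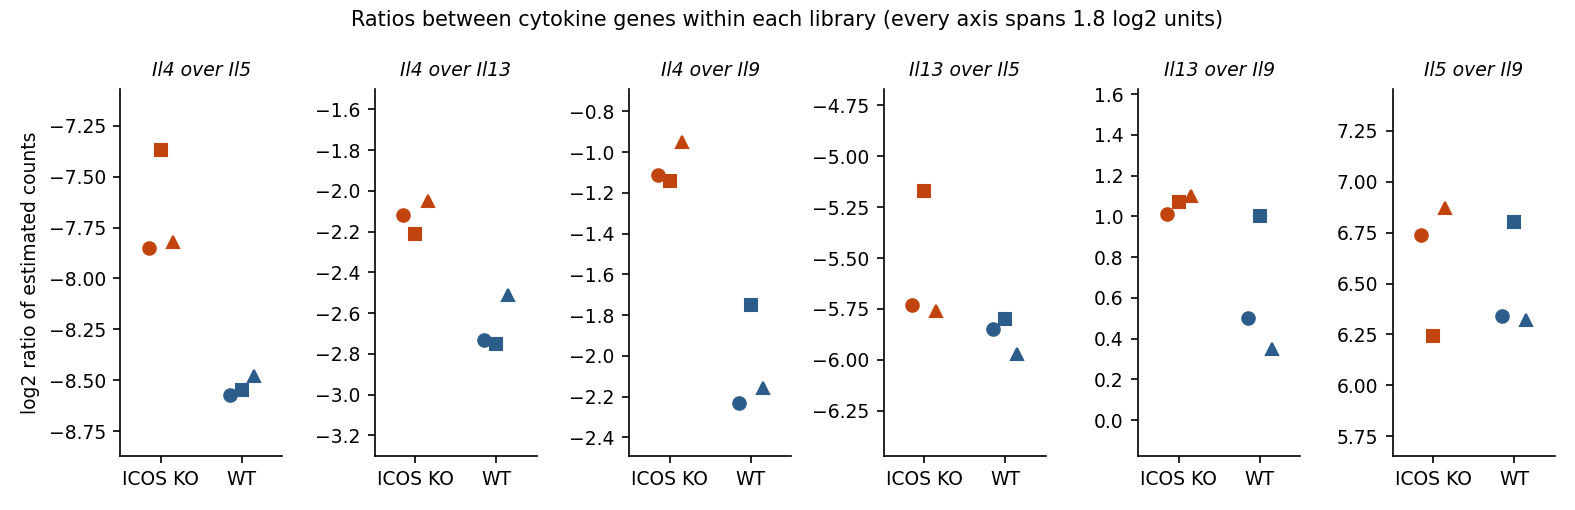
Within-library log2 ratio of estimated counts for the 6 pairs among Il4, Il13, Il5 and Il9, with 3 ICOS KO libraries (left) and 3 WT libraries (right) per pair; circles, squares and triangles are replicates 1, 2 and 3, and every axis spans the same range. Ratios with Il4 on top of Il13, Il5 or Il9 are higher in every ICOS KO library than in any WT library, as are, narrowly, those of Il13 over Il5 and over Il9.

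Ratios within a library do not depend on how libraries are scaled to each other, so they ask directly whether 2 of the genes moved by unequal amounts. Of the 10 pairs, 5 had ratios that did not overlap between the genotypes, and 3 of these were among the 4 pairs with Il4. The 10 pairs are built from 5 genes and share them, so the 5 are not separate observations. Among single genes 24.4% did not overlap, and the share over all pairs of genes was not computed. With 3 against 3 libraries no exact two-sided permutation p can fall below 0.1, and the smallest after adjustment over the 10 pairs was 0.2, so none passes. The largest difference of mean ratios was that of Il4 over Il9. Its log2 ratio was -1.11, -1.14 and -0.95 in ICOS KO replicates 1 to 3, against -2.23, -1.75 and -2.16 in WT replicates 1 to 3. The balance of Il4 to Il9 was thus 1.97-fold higher in ICOS KO cells, a difference of 0.98 (exact permutation p = 0.1). Il4 over Il5 had a mean log2 ratio of -7.68 ± 0.27 in ICOS KO and -8.53 ± 0.05 in WT (SD, n = 3 each), 1.81-fold higher in ICOS KO. Il4 over Il13 was at -2.13 ± 0.08 in ICOS KO and -2.66 ± 0.13 in WT, 1.45-fold higher. The Il4 over Il13 groups overlapped once trends in length and GC content were taken out (1.17-fold). Il13 over Il9 was 1.36-fold and Il13 over Il5 1.25-fold higher in ICOS KO, with hardly any gap between the groups. For Il13 over Il9 the nearest log2 ratios were 1.01 in ICOS KO replicate 1 and 1.0 in WT replicate 2. For Il13 over Il5 they were -5.76 in ICOS KO replicate 3 and -5.8 in WT replicate 2. The 4 pairs with Il6 overlapped (exact permutation p from 0.2 to 0.6), as did Il5 over Il9 (p = 0.9).

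**Figure D3:**
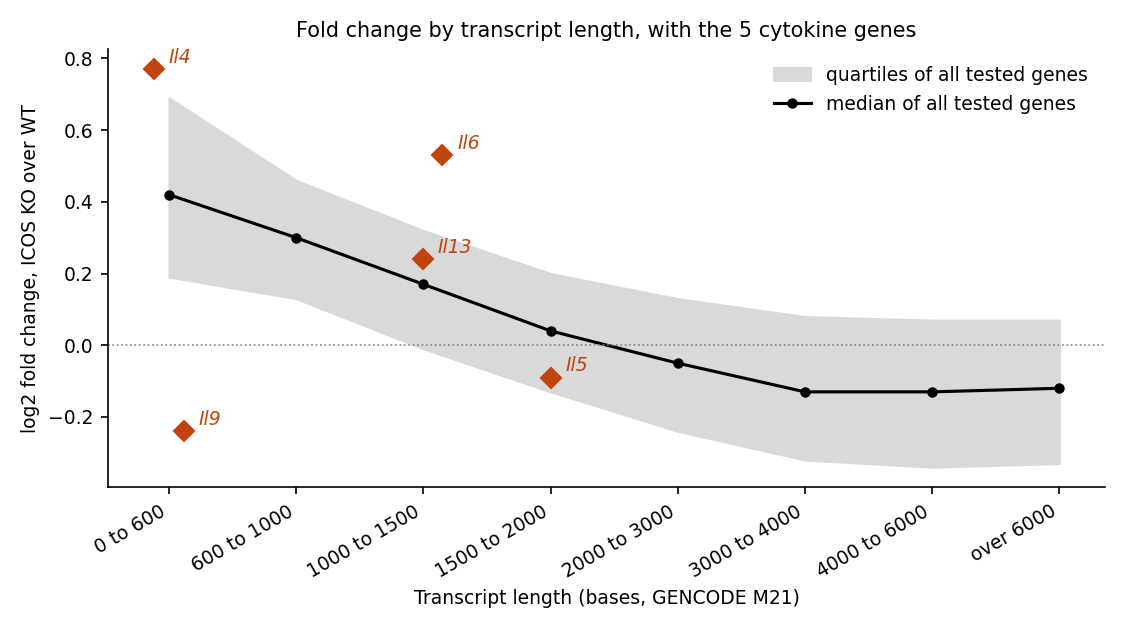
Log2 fold change, ICOS KO over WT, by class of transcript length in bases; the line is the median and the band the quartiles of all tested genes with a known length, and diamonds mark the 5 cytokine genes, spread within their class for legibility. The median falls from 0.42 for transcripts of up to 600 bases to about -0.13 for those over 3000 bases, and Il4 and Il9 lie at the short end.

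Differences between the genotypes followed transcript length across the whole table, which bears on these short transcripts. Genes of up to 600 bases, 777 in number, had a median log2 fold change of 0.42, and 84.0% of them were positive, whereas the 2163 genes of 3000 to 4000 bases had a median of -0.13. Il9 (536 bases) and Il4 (590 bases) fall in the shortest class, Il6 (1141 bases) and Il13 (1205 bases) in a class with a median of 0.17, and Il5 (1537 bases) in one with a median of 0.04. Il4 at 0.77 was above the upper quartile of its class, 0.69, and Il9 at -0.24 was below the lower quartile, 0.19. With each library's trend in length and GC content taken out, the picture moved from Il4 to Il9. Il4 was at 26.8, 25.8 and 23.7 CPM in ICOS KO replicates 1 to 3, against 22.2, 20.4 and 17.9 CPM in WT replicates 1 to 3. The groups still did not overlap, but the log2 fold change was 0.33 ± 0.14 and no longer passed (edgeR's adjusted p = 0.215).

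Il9, with the trend removed, was at 56.9, 58.4 and 47.1 CPM in ICOS KO replicates 1 to 3, against 100, 66.7 and 82.6 CPM in WT replicates 1 to 3. It was lower in every ICOS KO library, at 0.652-fold (log2 fold change -0.62 ± 0.14, 95% interval -0.93 to -0.30), and passed the test (edgeR's adjusted p = 0.0327), where 4.4% of all genes did. Il13 (0.11 ± 0.11), Il5 (-0.17 ± 0.06) and Il6 (0.10 ± 0.42) were not called (edgeR's adjusted p = 0.637, 0.176 and 0.932). The groups overlapped for each of these, also for Il13, which had not overlapped before. Whether Il4 is called higher or Il9 lower thus depends on this correction, whereas the ratio of Il4 to Il9, 2 transcripts of nearly the same length, hardly does. With the trend removed the ratio was -1.09 ± 0.09 in ICOS KO and -2.03 ± 0.28 in WT on the log2 scale (SD, n = 3 each), a 1.92-fold difference with no overlap. Il4 over Il5 (1.42-fold), Il13 over Il9 (1.64-fold) and Il13 over Il5 (1.21-fold) also kept their separation, and Il4 over Il13 (1.17-fold) did not.

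**Figure D4:**
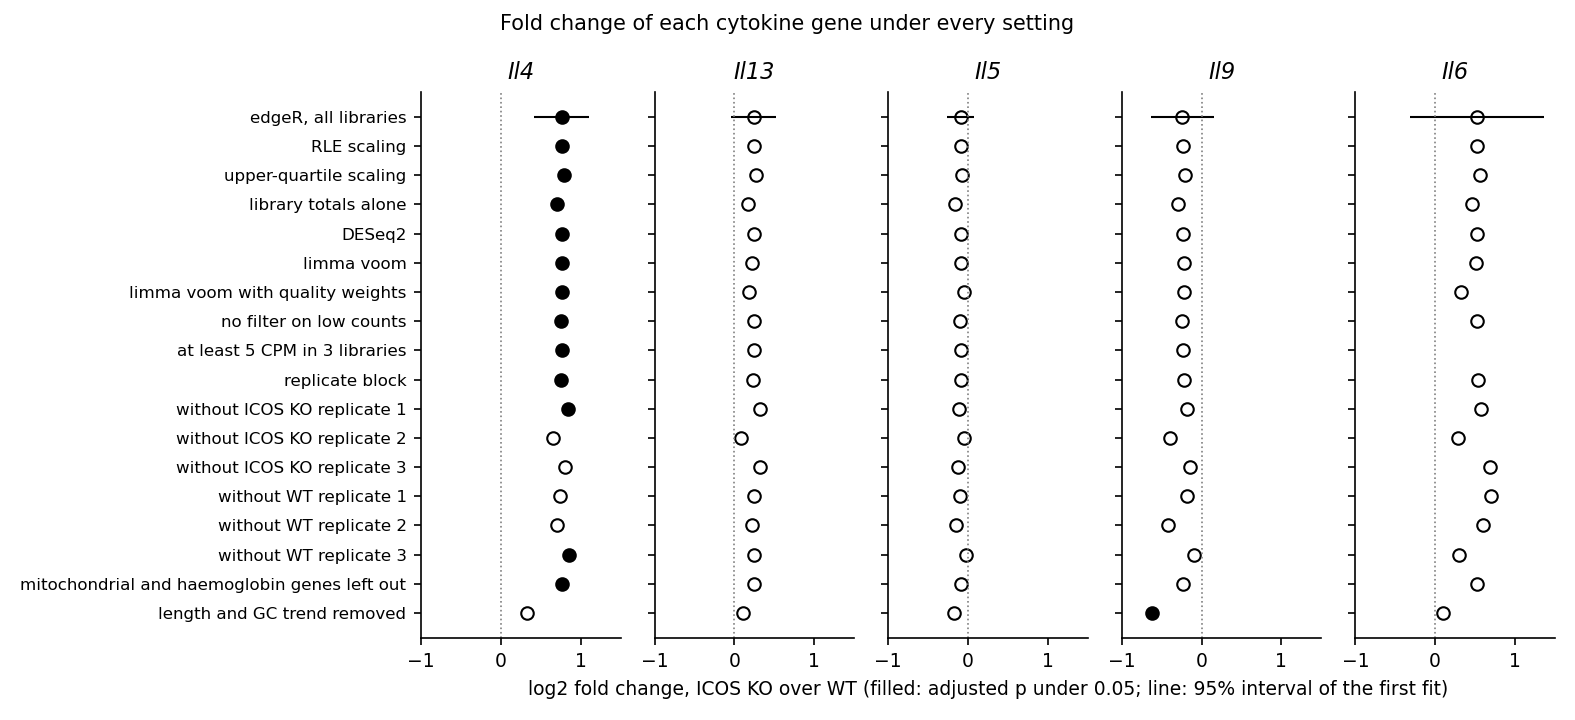
Log2 fold change, ICOS KO over WT, of the 5 genes under the reported fit, with its 95% interval as a line, and under each alternative setting; filled points have an adjusted p under 0.05. Il4 stays above 0 throughout, from 0.33 to 0.85, and Il9 below 0, from -0.62 to -0.09, with the lowest value of each coming from the removal of the length and GC trend.

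Genes whose log2 CPM ran most closely with each cytokine over the 6 libraries were sought among 7935 protein-coding genes of at least 10 CPM, as a description; the 6 points share depth, library quality and genotype. Closest to Il4 were Lancl1, Zfp511 and Pqbp1 (Pearson r = 0.9958, 0.991 and 0.9895), and 106 genes exceeded 0.95. For Il13 they were Trappc10, BC005624 and Aasdhppt (0.9758 to 0.9735; 23 genes over 0.95). For Il5 they were Cops4, Tpm1 and Fnta (0.9823 to 0.9742; 8 genes), and for Il9 Inpp5f, Bace2 and St13 (0.98 to 0.9513; 3 genes). Closest to Il6 were Mrgbp, Pdik1l and Iqcc (0.9786 to 0.9731; 20 genes). No cytokine of the set was among the 3 closest genes of another. On deviations from the genotype means alone, the closest genes were others in nearly every place: Eef1akmt4, Agtrap and Ube2l6 for Il4, Adi1, Golgb1 and BC005624 for Il13, Wdr44, Cnih1 and Acadl for Il5, and Pcgf1, Nabp2 and Inpp5f for Il9, with Terf2 and Agap1 among those for Il6.

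No gene near the members was called in the reported fit. Over all tested genes 3.29% were called, so 0 calls among so few genes is no statement about the neighbours. In the alternatives Uqcrq was called with the replicate block and with a library left out (edgeR's lowest adjusted p = 0.0321). Within 250 kb of Il4, Il13 and Il5, 10 protein-coding genes matched by symbol were tested, with a median log2 fold change of 0.18; 0 were called by edgeR, DESeq2 or voom, and 2 had an unadjusted edgeR p under 0.05 (Uqcrq and Gm12216). Kif3a, a kinesin gene 1.0 kb from Il4, was at 0.20 (edgeR's adjusted p = 0.416), Rad50 at 0.09 (0.63), the transcription factor gene Irf1 at 0.17 (0.424), the respiratory chain gene Uqcrq at 0.38 (0.138) and Aff4 at -0.08 (0.661). Near Il9 and Il6, 0 of 2 and 0 of 5 tested genes were called by any of these tools, and 0 had an unadjusted edgeR p under 0.05. The share of all tested genes with such an unadjusted p is not given here.

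**Figure D5:**
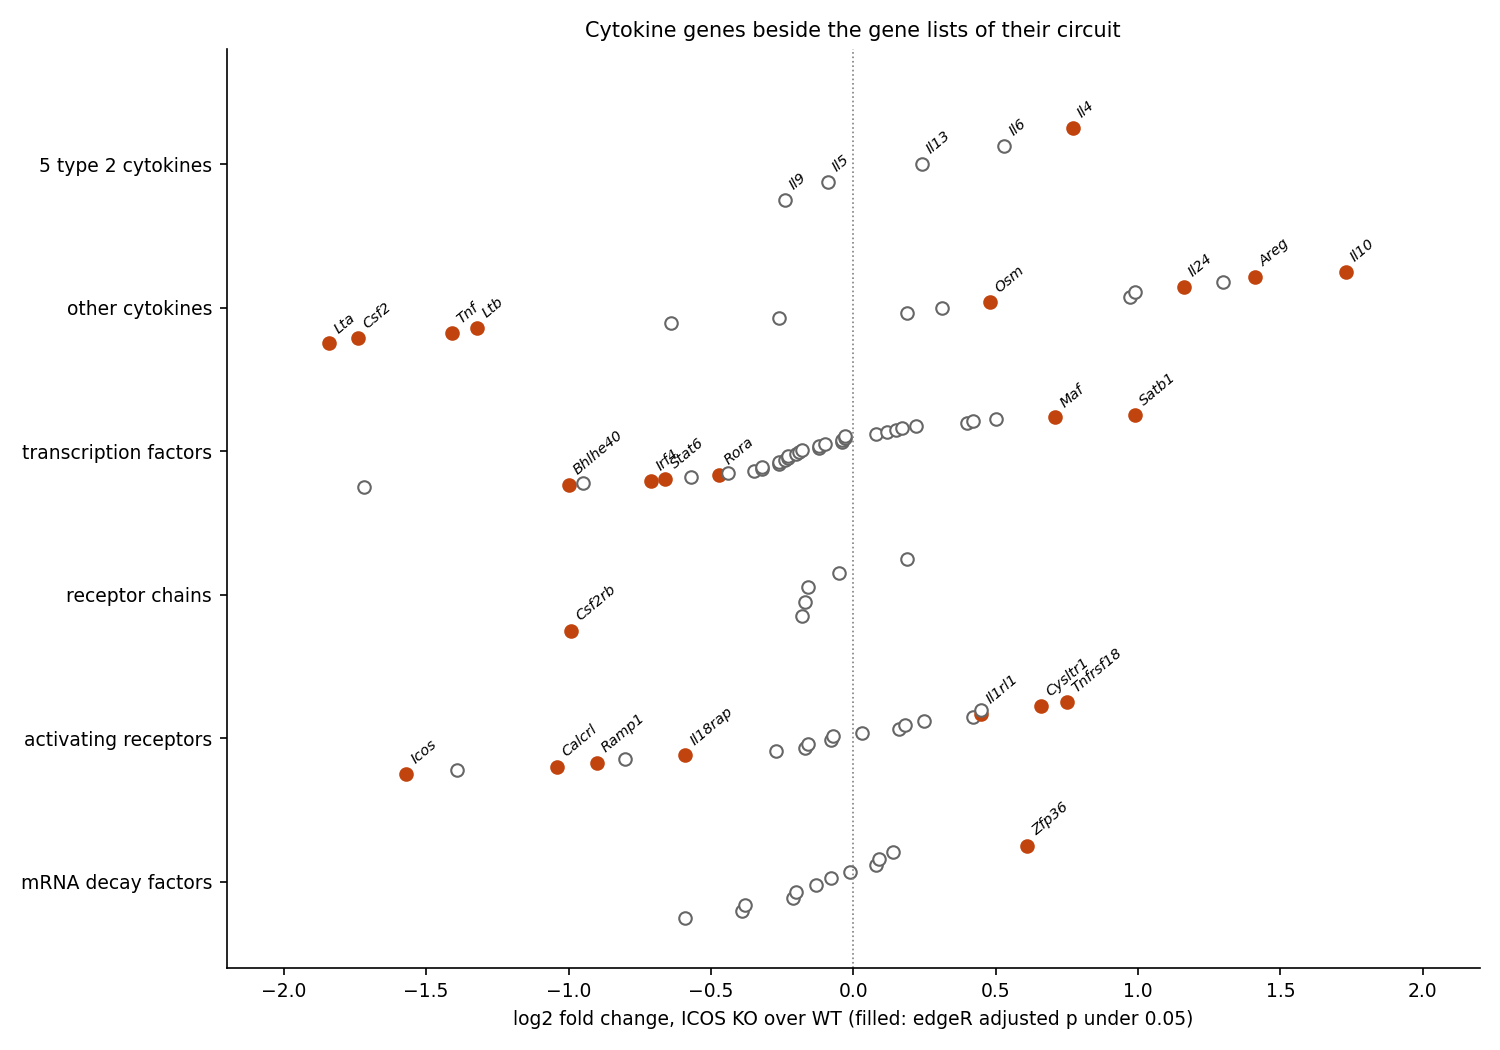
Log2 fold change, ICOS KO over WT, of the 5 cytokine genes and of the genes in 5 lists of their circuit; filled points have an edgeR's adjusted p under 0.05. Called genes lie on both sides of 0 in every list except the receptor chains and the mRNA decay factors, which have 1 called gene each.

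On the receiving side, the list of 10 genes held receptor chains of these cytokines and Csf2rb2, a near copy of one of them. Of the 10, 6 were tested, and 1 was called, lower. Csf2rb, the beta chain that pairs with the interleukin-5 receptor, fell to 43.9 ± 3.90 CPM in ICOS KO, against 87.3 ± 9.31 CPM in WT (SD, n = 3 each; log2 fold change -0.99, edgeR's adjusted p = 0.00107). Its near copy Csf2rb2 was at 12.4 ± 2.33 CPM in ICOS KO and 13.9 ± 2.01 CPM in WT (edgeR's adjusted p = 0.678), and reads shared by the 2 genes may have been divided between them. Il4ra, the chain shared by interleukin-4 and interleukin-13, was at 200 ± 29.3 CPM in ICOS KO and 227 ± 28.7 CPM in WT (edgeR's adjusted p = 0.439). Il9r was at 81.9 ± 4.05 CPM in ICOS KO and 71.8 ± 5.75 CPM in WT (edgeR's adjusted p = 0.342). Il5ra, Il13ra1 and Il6ra were below the expression filter, with at most 23 estimated counts in a library.

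Transcription factors that act on type 2 cytokine genes numbered 36, all tested, of which 2 were called higher and 4 lower, with 26 of 36 negative and a median log2 fold change of -0.18 (0.00 over all genes). Over all tested genes 1.29% were called higher and 2.01% lower, which is the background for each list here. Direction also followed transcript length, with 33.3% of all genes of 3000 to 4000 bases positive. The 26 of 36 was not adjusted for length. Maf, a factor known to activate Il4, rose to 62.8 ± 7.20 CPM in ICOS KO, against 38.4 ± 4.2 CPM in WT (edgeR's adjusted p = 0.0138). Satb1, an organiser of the type 2 cytokine locus, rose to 94.8 ± 4.59 CPM in ICOS KO, against 47.9 ± 3.02 CPM in WT (edgeR's adjusted p = 0.00046). Bhlhe40, known as a repressor of Il10, Irf4, a partner of NFAT at cytokine genes, Stat6, which carries the interleukin-4 signal, and Rora, needed for ILC2 development, fell, to 0.501, 0.613, 0.634 and 0.723 of the WT level (edgeR's adjusted p = 0.00162, 0.0104, 0.0454 and 0.0155). Gata3, the master factor of the type 2 programme, was lower by 0.20 and was not called (edgeR's adjusted p = 0.227). Leaving out WT replicate 1, WT replicate 2 or ICOS KO replicate 3 ended the calls of Maf, Irf4, Rora and Stat6, and leaving out ICOS KO replicate 2 ended that of Stat6 too, as did testing without a filter on low counts.

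Receptors that activate ILC2s went both ways, with 3 of 20 called higher and 4 lower, and a median of -0.08. The glucocorticoid-induced receptor gene Tnfrsf18 (0.75), the leukotriene receptor gene Cysltr1 (0.66) and the interleukin-33 receptor gene Il1rl1 (0.45) rose (edgeR's adjusted p = 0.0012, 0.00354 and 0.0495). Besides Icos, Calcrl (-1.04) and Ramp1 (-0.90), which form the receptor of the neuropeptide CGRP, and Il18rap (-0.59) fell (edgeR's adjusted p = 0.0108, 0.000985 and 0.0142). Without WT replicate 1 or without ICOS KO replicate 3 the calls of Il1rl1, Calcrl and Il18rap were lost. That of Il1rl1 was also lost without WT replicate 2, without WT replicate 3, with library totals alone and without a filter on low counts, and that of Il18rap without WT replicate 2 and without ICOS KO replicate 2.

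Among 12 factors of cytokine mRNA decay and stability 1 was called, higher: Zfp36, at 75.1 ± 3.33 CPM in ICOS KO and 49.3 ± 2.84 CPM in WT (log2 fold change 0.61 ± 0.11, edgeR's adjusted p = 0.0102; 0.0721 without WT replicate 1). The pentamers shown above were found by their letters, and binding of the Zfp36 protein to them was not tested. The list had a median of -0.11. Of 15 other cytokine genes tested, 4 were called higher (the anti-inflammatory Il10 at 1.73, the tissue repair factor gene Areg at 1.41, Il24 at 1.16 and Osm at 0.48) and 4 lower (Lta at -1.84, Csf2 at -1.74, Tnf at -1.41 and Ltb at -1.32), beside 0.77 for Il4. Osm was no longer called when any library but ICOS KO replicate 1 was left out (edgeR's adjusted p up to 0.189) or with library totals alone. Csf2 encodes a cytokine whose receptor shares the Csf2rb chain with that of interleukin-5, and it fell while Il5 was not called.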

How the data were processed

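RNA of 6 libraries of cultured lung ILC2s was analysed, 3 ICOS KO and 3 WT. The values are estimated counts per gene in 1 table from the authors, and 39.4% of them were not whole. Per the submitters' processing notes Partek 10.0, STAR 2.7.8 and DESeq2 were used with the mm10 build; the sources used here give no annotation, counting method or strand setting. All 3 libraries of each genotype were used, although the design text mentions duplicates. No molecular identifiers are described, so intervals and floors cover counting error only.

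Libraries were matched to genotypes by the library name in the labels. Estimated counts were rounded, filtered with filterByExpr (13691 genes kept), scaled by TMM and put through the quasi-likelihood test of edgeR 4.0.16 (with limma 3.58.1 under R 4.3.3) for ICOS KO against WT, with no covariate. Benjamini-Hochberg adjustment ran over all tested genes, and the threshold was 0.05. The biological coefficient of variation was 18.5%. Log2 fold changes carry the SE implied by the F statistic. Levels per kb are CPM divided by the length of 1 GENCODE M21 transcript per gene (17691 genes matched by symbol). Pair ratios used estimated counts with 0.5 added. On simulated counts of 13403 genes for ICOS KO against WT the fit found 52% of the genes changed 1.5-fold, 80% of those changed 2-fold and 100% of those changed 4-fold, 50 genes each. The changed genes were drawn from those over 5 CPM, which leaves out levels such as that of Il6. No trend in length or GC content was simulated, so these shares need not hold for the 5 cytokine genes. No 2 libraries were copies of each other: the chi-square of their counts was at least 8.92 per degree of freedom.

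The members and lists were chosen with earlier results of these data known. From each list the text names called genes, at most 8 by smallest p, or otherwise the most abundant; Kif3a, Irf1, Gm12216, Gm12214, Gata3, Malat1, the uncalled receptor chains and single marker genes that were not called were added after their values were seen. Alternatives were other scalings (RLE, upper quartile, totals), DESeq2 1.42.0, voom with and without quality weights, no filter, 5 CPM in 3 libraries, the replicate block, each library left out, mitochondrial and haemoglobin genes left out, and the length and GC trend removed; removing that trend from the pair ratios was chosen after seeing the data. Promoters are those of RefSeq, GRCm38.p6, and all 5 genes were matched. The result of 1 gene that the naming rule picked is not reported here.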

Additional observations from a re-analysis of the deposited data

How the results depend on the processing

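The table-wide count of called genes was 451 (176 higher, 275 lower in ICOS KO). It was 909 with DESeq2, 906 with weighted voom and 784 with the replicate block, and from 193 to 1090 with 1 library left out, with 193, 194 and 216 without WT replicate 1, WT replicate 2 and ICOS KO replicate 3, and 1090 without ICOS KO replicate 1. The split was 127 higher and 324 lower with library totals alone and 322 higher and 281 lower with the length and GC trend removed. Il4 kept its direction under all 17 alternatives. Its log2 fold change was 0.33, no longer called, after removal of the length and GC trend, and 0.65 to 0.85 with 1 library left out, where 4 of 6 omissions ended the call. The call of Il9 appeared with that trend removed (-0.62) and under none of the other 16 alternatives. Il13, Il5 and Il6 were never called and never changed direction; a filter of 5 CPM removed Il6. Same-numbered libraries correlated at 0.06 to 0.09 in their deviations, each ICOS KO library best with its own number. The labels do not say whether these libraries were paired, and such low correlations do not settle it. The replicate block kept the call of Il4 (edgeR's adjusted p = 0.0225) and made none of the other members called, though it called Uqcrq. No pair ratio changed direction when 1 library was left out, with a prior count of 5 or with the trend removed, the alternatives run on the ratios. Signs turned among uncalled genes near 0: with 1 library left out, S100a8 ranged from -0.33 to 0.20, S100a9 from -0.23 to 0.12, Smad5 from -0.01 to 0.50 and Dnajb6 from -0.05 to 0.05; the other such genes were Aff4 with the trend removed (0.09), and Dnajb6 with the trend removed (-0.09), with totals alone (-0.06) and without a filter (-0.00). Called genes ranged from 2 to 11 for the transcription factors, 4 to 11 for the activating receptors and 7 to 10 for the other cytokines. The cause of these changes was not tested. Low counts add counting error to Il6, and 3 libraries a genotype limit every p-value.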
